A study of Saccharomyces cerevisiae with 18 samples.

Results

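The comparison here asks how the change between ethanol and glucose medium differed between 2 diploid strains of the budding yeast Saccharomyces cerevisiae, YJM975 and RM11. It rests on 12 of the 18 libraries of a study on how natural genotypes shape traits: YJM975 in ethanol, YJM975 in glucose, RM11 in ethanol and RM11 in glucose, 3 biological replicates each. Both strains were homozygous a/α diploids with no engineered allele given in the labels, grown in S-CSM, a synthetic supplemented medium, with 2% of the carbon source. By the labels' protocols, liquid cultures of 5 mL were harvested in exponential growth, at an OD600 of 0.5 to 1.0, and polyA RNA was sequenced. YJM975 is a clinical isolate and RM11 descends from a vineyard isolate, so each stands for 1 genotype and not for a class of strains. The genes were chosen by level only, a mean of at least 1 TPM (a transcript's abundance, scaled by its length and to a fixed library total) over the 12 libraries, which kept 6271 of 6612 transcripts. HXT13 lay just inside that limit at 1.01 TPM and YDR194W-A just outside it at 0.986 TPM.

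Yeast that has glucose ferments it, makes ribosomes at a high rate and represses the genes for other carbon sources. Yeast on ethanol must oxidise it through acetyl-CoA, the glyoxylate cycle and respiration, and must build sugars by gluconeogenesis. Ribosome production, stress defence and reserve carbohydrates are tied to growth through the protein kinase A and TOR pathways, and genes of these groups tend to move together when growth changes.

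Marker genes in the libraries labelled glucose were not at the levels that label calls for. HXK2, the glucose-induced hexokinase, was low in both media, at 5.26 ± 0.697 TPM in ethanol and 5.08 ± 0.534 TPM in glucose (mean ± SD, n = 3) in YJM975 and at 1.79 ± 0.547 TPM in ethanol and 2.30 ± 0.0468 TPM in glucose in RM11. FBP1, the fructose-1,6-bisphosphatase that glucose represses, stood at 198 ± 8.19 TPM in ethanol and 353 ± 24.0 TPM in glucose in YJM975 and at 249.9 ± 9.10 TPM in ethanol and 809 ± 29.3 TPM in glucose in RM11, higher in glucose than in ethanol in both strains. ADH2, the glucose-repressed alcohol dehydrogenase that uses ethanol, was on the side its label gives, at 672 ± 42.5 TPM in ethanol and 72.7 ± 6.36 TPM in glucose in YJM975 and 406 ± 37.9 TPM in ethanol and 144 ± 16.3 TPM in glucose in RM11. Most glycolysis genes were also lower in these libraries than in ethanol in both strains, as given later. The labels give no glucose concentration at harvest, so whether these cultures still held glucose is not known, and an ethanol minus glucose difference may not be one between growth on ethanol and growth on glucose. Glucose means, throughout, the libraries labelled so. A list of 27 stationary phase and hydrophilin genes took 17.3 ± 0.298% of all TPM in YJM975 in ethanol and 9.57 ± 0.224% in glucose. In RM11 that list took 18.8 ± 1.18% in ethanol and 12.2 ± 0.224% in glucose. The growth state of the cultures at harvest, in either medium, was not tested. The libraries of both strains in glucose carry 1 sequencing run label and those in ethanol another, so run and medium cannot be told apart. Each difference between the strains in 1 medium lies within 1 run, and the strain difference in ethanol uses no library labelled glucose.

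TPM sum to the same total in each library: the files keep no depth, and any gain in abundant transcripts takes from the rest. The 50 most abundant transcripts took 44.7 to 47.5% of all TPM in YJM975 in glucose and 39.8 to 42.8% in the other 9 libraries. The median transcript stood at 17.4 to 18.5 TPM in YJM975 in glucose and at 23.7 to 26.1 TPM in the others. Over genes, which are no replicates of each other, r between replicate libraries was 0.9945 to 0.9978. Of the variance among the 12 libraries, 73.7% lay on the first principal component and 16.8% on the second. As a check on the state of the diploid cultures, 21 haploid and mating genes together took 0.0702 to 0.0780% of TPM in YJM975 in ethanol, 0.0374 to 0.0461% in YJM975 in glucose, 0.0992 to 0.105% in RM11 in ethanol and 0.0750 to 0.0780% in RM11 in glucose. The pheromone receptor genes STE2 and STE3 reached at most 9.94 and 4.35 TPM in any library. HO, the mating-type endonuclease gene that diploids repress, reached at most 0.437 TPM in YJM975 and stood at 0 TPM in each RM11 library. A value of 0 throughout a strain cannot show whether the gene was repressed there. MFA1, an a-factor pheromone gene that a/α diploids repress, went the other way, at 367 to 416 TPM in YJM975 in ethanol, 143 to 167 TPM in YJM975 in glucose, 551 to 629.6 TPM in RM11 in ethanol and 353 to 374 TPM in RM11 in glucose. Of the 20 genes of this list that were tested, 14 were called higher and 2 lower by the test described next, 9 and 7 with median centring. The part of this list in the other results was not tested.

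The test was the difference of responses, the YJM975 change minus the RM11 change, each ethanol minus glucose on the log2(TPM + 1) scale, with limma over all 6271 genes and a call at an adjusted p below 0.05. A gene called higher changed upward more, or downward less, in YJM975 than in RM11. Of the 6271 genes, 4806 (76.6%) were called, 3540 (56.5%) higher and 1266 (20.2%) lower. A difference of at least 2-fold was called higher for 1543 genes (24.6%) and lower for 243 (3.87%). For 3296 genes (52.6%) each of the 9 ethanol-minus-glucose differences between libraries of YJM975 lay above each of the 9 of RM11, and for 1056 (16.8%) below. The split depends on the scaling. After each library was centred on its median, the calls were 2250 higher and 2615 lower. Without centring the median difference of all genes was 0.40. Each list median called relative is its median difference of responses minus that of all genes. Median centring leaves the relative medians as they are and moves the counts, and a relative median under quantile normalization is given where it differs by more than 1.5 times.

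YJM975 changed more than RM11. Its response passed 2-fold among the called for 2427 genes, against 585 in RM11, and the SD of the response over all genes was 1.24 in YJM975 and 0.640 in RM11. In YJM975 3554 genes rose (56.7%) and 1908 fell (30.4%), and in RM11 1980 rose (31.6%) and 2344 fell (37.4%). The majority turned with the scaling: with median centring 2591 rose and 2944 fell in YJM975, against 2236 and 2313 in RM11, and with quantile normalization 2581 and 2917 in YJM975, against 2300 and 2247 in RM11. Of the 4806 genes whose responses differed, 2282 changed in the same direction in both strains, and in 2052 of these the change was larger in YJM975. A further 1418 were called for a change in YJM975 alone and 353 in RM11 alone, 728 changed in opposite directions, and 25 were called for neither response. The responses correlated with r = 0.695 (Spearman's rho 0.667) over the 6271 genes, from libraries with no overlap between the strains; genes share libraries and are not independent.

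**Figure D1:**
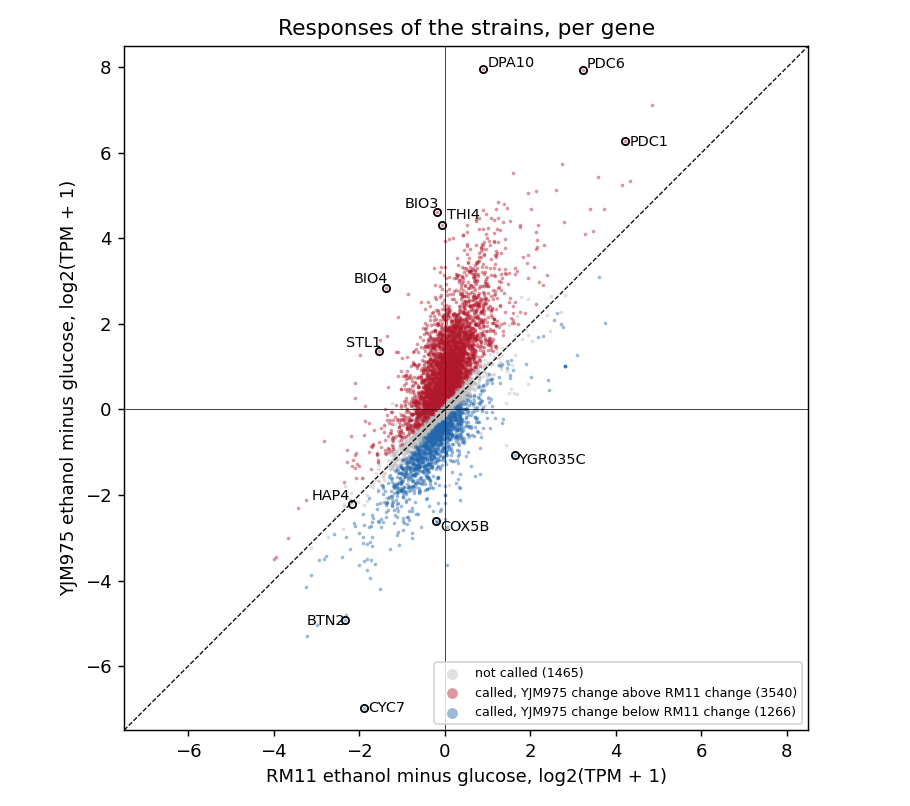
Each point is 1 of 6271 genes, with the ethanol minus glucose change in RM11 on the x axis and in YJM975 on the y axis, both log2(TPM + 1); the dashed line marks equal change. The 3540 genes called higher lie above the line and the 1266 called lower below it, and the vertical spread (SD 1.24) exceeds the horizontal one (SD 0.640).

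The strains stood close together in ethanol and apart in glucose. In ethanol 1644 genes were higher in YJM975 (26.2%) and 1281 lower (20.4%), with a median absolute difference of 0.18 log2 units. In glucose 1420 were higher in YJM975 (22.6%) and 3798 lower (60.6%), with a median absolute difference of 0.60. These absolute medians, and the 2-fold and larger-difference counts below, come from values without centring. There the median signed difference over all genes was 0.03 in ethanol and -0.38 in glucose. The direction turned with the scaling, to 2724 higher and 2505 lower in glucose with median centring and 2741 and 2375 with quantile normalization. In ethanol it turned too, to 1495 higher and 1827 lower and to 1639 and 1703. Differences called at 2-fold or more numbered 295 in ethanol and 1721 in glucose. Among the 4806 genes whose responses differed, the strain difference was larger in glucose for 4027 (83.8%) and larger in ethanol for 779. By calls, 2405 of the 4806 differed between the strains in glucose and not in ethanol, 319 in ethanol and not in glucose, 2014 in both media and 68 in neither. Of the 2014, 1176 differed in opposite directions in the 2 media.

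**Figure D2:**
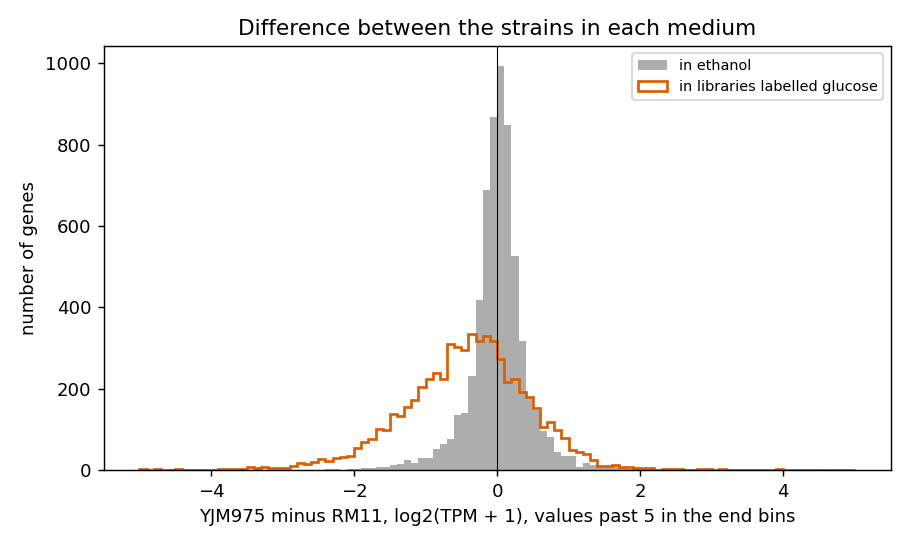
Histograms of the YJM975 minus RM11 difference per gene, log2(TPM + 1), in ethanol (filled) and in the libraries labelled glucose (line), over 6271 genes. The ethanol values crowd around 0 (median 0.03), and the glucose values spread widely with a median of -0.38.

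Genes for making ribosomes rose in YJM975 far more than in RM11. Cytosolic ribosomal protein genes were called higher for 134 of 137 and lower for 2, against 56.5% and 20.2% over all genes. These ribosomal genes had a median difference of responses of 2.09, or 1.69 relative to all genes. Their median response was 2.65 in YJM975 and 0.59 in RM11. Together they took 10.8 ± 0.454% of all TPM in YJM975 in ethanol and 2.87 ± 0.0281% in glucose, against 9.82 ± 0.215% and 6.54 ± 0.264% in RM11. The median difference between the strains was 0.15 in ethanol and -1.88 in glucose. RPS27A and RPS30A, of the small subunit, were the 2 called lower, at -0.44 and -0.38, and RPS30B stood at -0.09.

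RPL3, a protein of the large subunit near its catalytic centre, showed the pattern in single libraries. In YJM975 it stood at 559.9, 591 and 629 TPM in ethanol, against 33.7, 33.1 and 40.5 TPM in glucose. RM11 libraries had 449, 408 and 431 TPM in ethanol, against 374, 385 and 373 TPM in glucose. The 3 YJM975 libraries in glucose lay below the other 9, and the difference of responses was 3.83 ± 0.10 (adjusted p = 3.90e-12). Other large-subunit genes were close to it, RPL22A at 3.80 ± 0.20 and RPL15A at 3.72 ± 0.14.

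Ribosome biogenesis genes, which process ribosomal RNA and assemble the subunits in the nucleolus, were called higher for 42 of 44, against 56.5% over all genes. The list median was 1.20 relative to all genes. NOP16 was called lower, at -0.27. In YJM975 40 of the 44 rose and 1 fell, at a median response of 1.58, against 8 rising and 22 falling in RM11, at -0.15. Over all genes 56.7% rose and 30.4% fell in YJM975, and 31.6% and 37.4% in RM11. Of the 44, 18 rose in YJM975 and fell in RM11, against 603 of all 6271 genes. NOP58, a core protein of the box C/D snoRNPs that guide RNA methylation, stood at 31.9, 32.1 and 33.9 TPM in ethanol, against 5.11, 4.204 and 5.30 TPM in glucose in YJM975. Levels in RM11 were 17.2, 14.98 and 14.6 TPM in ethanol, against 19.9, 22.6 and 19.4 TPM in glucose. It rose in YJM975 and fell in RM11, a difference of 2.91 ± 0.12 (adjusted p = 1.25e-10). NOP56, its partner in the same particles, differed by 2.91 ± 0.10, SSF1, an assembly factor of the large subunit, by 3.01 ± 0.15, and NSR1, a nucleolin-like protein of the small-subunit pathway, by 3.37 ± 0.48. NSR1 in YJM975 in glucose was uneven, at 6.78, 7.13 and 26.6 TPM, and its groups still did not overlap.

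RNA polymerase I, which transcribes ribosomal DNA, had 11 of 14 genes called higher and 1 lower (RRN10, an initiation factor subunit, at -0.21). Of all genes 56.5% and 20.2% were. The median of the polymerase list was 0.90 relative to all genes. RPA49 differed by 2.80 ± 0.14 (adjusted p = 6.54e-10), RPA43 by 2.52 ± 0.14, RPA34 by 2.14 ± 0.18 and RPA12 by 2.27 ± 0.13. RPA12 rose in YJM975 by 2.01 and fell in RM11 by 0.26 on the log2 scale. Translation factors were higher for 26 of 27, with a median of 0.84 relative to all genes, and SUI1, an initiation factor for start codon choice, was the 1 called lower, at -0.43. TEF4, a subunit of elongation factor 1B, stood at 110.3 ± 8.18 TPM in ethanol and 7.21 ± 0.554 TPM in glucose in YJM975 and 80.8 ± 6.496 TPM in ethanol and 40.8 ± 2.27 TPM in glucose in RM11, a difference of 2.79 ± 0.11. TIF1, the initiation helicase eIF4A with a near-identical copy in TIF2, differed by 2.62 ± 0.12, EFB1, another elongation factor 1B subunit, by 2.53 ± 0.08, and YEF3, the fungal elongation factor 3, by 2.19 ± 0.09.

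Promoters of ribosome biogenesis and RNA polymerase I genes often held short motifs, read here from the R64 assembly of strain S288C and not from YJM975 or RM11. A promoter is 250 bases before to 50 after the annotated start, searched on both strands. PAC (GATGAG) stood in 97.7% of the 44 ribosome biogenesis promoters and 78.6% of the 14 RNA polymerase I promoters, against 20.3% of all 6020. RRPE (AAAATTTT) stood in 79.5% of the biogenesis and 74.1% of the translation factor promoters, against 542 of all 6020. Among the 1450 promoters of genes called higher 2-fold, 26.1% held PAC and 17.1% held RRPE. The cytosolic ribosomal protein promoters held PAC in 10.9% and RRPE in 6.57%, both below all promoters, and the translation factor promoters held PAC in 22.2%, close to all promoters. NSR1 and NOP56 are shown because both motifs lie close together in them, over bases 250 to 101 before the start, at chrVII:807757-807906 (minus strand) and chrXII:545847-545996 (plus strand), with PAC and RRPE in capitals (as the reverse complement where they lie on the other strand).
NSR1: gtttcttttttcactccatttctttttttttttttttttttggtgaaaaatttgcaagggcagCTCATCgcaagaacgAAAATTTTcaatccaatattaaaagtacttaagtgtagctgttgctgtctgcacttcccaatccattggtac
NOP56: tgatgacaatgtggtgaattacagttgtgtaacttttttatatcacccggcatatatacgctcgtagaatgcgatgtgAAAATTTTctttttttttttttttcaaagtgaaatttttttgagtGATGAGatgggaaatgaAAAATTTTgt
In NSR1, PAC begins 187 and RRPE 172 bases before the start. In NOP56, PAC begins at 127, between RRPE matches at 172 and 110.

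Most glycolysis genes rose in ethanol over glucose in both strains, 14 of 17 in YJM975 and 12 in RM11, and rose more in YJM975. Of 17, 14 were called higher and 1 lower (HXK1, a hexokinase, at -0.26), against 56.5% and 20.2% over all genes. Rises were called for 56.7% of all genes in YJM975 and 31.6% in RM11. The list had a median response of 3.25 in YJM975 and 1.31 in RM11 and a relative median of 1.16. The list took 2.64 ± 0.110% of all TPM in YJM975 in ethanol and 0.300 ± 0.0172% in glucose, against 2.18 ± 0.135% and 0.825 ± 0.0297% in RM11. PGK1, the phosphoglycerate kinase, stood at 1036, 948 and 1117 TPM in ethanol, against 43.1, 37.3 and 35.3 TPM in glucose in YJM975. The RM11 values were 935, 880.2 and 908 TPM in ethanol, against 333, 337 and 319 TPM in glucose. The strains did not differ by the test in ethanol, YJM975 was lower in glucose by 3.07 log2 units, and the difference of responses was 3.25 ± 0.10 (adjusted p = 1.23e-11). CDC19, the main pyruvate kinase, differed by 2.66 ± 0.11. TDH3 and TDH2, near-identical glyceraldehyde-3-phosphate dehydrogenase genes, differed by 2.49 ± 0.09 and 2.53 ± 0.07. TYE7 and GCR1, activators of glycolytic genes, differed by 2.71 ± 0.08 and 2.33 ± 0.09.

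In fermentation, 5 of 9 genes were called higher and 2 lower, shares close to the 56.5% and 20.2% over all genes. PDC6, a minor isoform of pyruvate decarboxylase, stood at 1615, 1492 and 1546 TPM in ethanol, against 5.19, 4.95 and 6.02 TPM in glucose in YJM975. In RM11 it stood at 1657, 1510.3 and 1567 TPM in ethanol, against 173, 167 and 164 TPM in glucose. The strains did not differ by the test in ethanol and differed by -4.73 in glucose, a difference of responses of 4.71 ± 0.09 (adjusted p = 3.46e-13). PDC1, the major isoform, differed by 2.05 ± 0.11, ADH1, the alcohol dehydrogenase that makes ethanol, by 1.88 ± 0.10, and ALD2, a cytosolic aldehyde dehydrogenase, by 0.81 ± 0.08. PDC5, a further isoform, rose in YJM975 by 0.85 and fell in RM11 by 0.24, a difference of 1.09 ± 0.14. The 2 called lower were ALD3 at -0.53 and ADH5 at -0.48, while ADH3 and ADH4 stood at -0.03 and 0.12 and were not called. ADH2 differed by 1.70 ± 0.13.

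**Figure D3:**
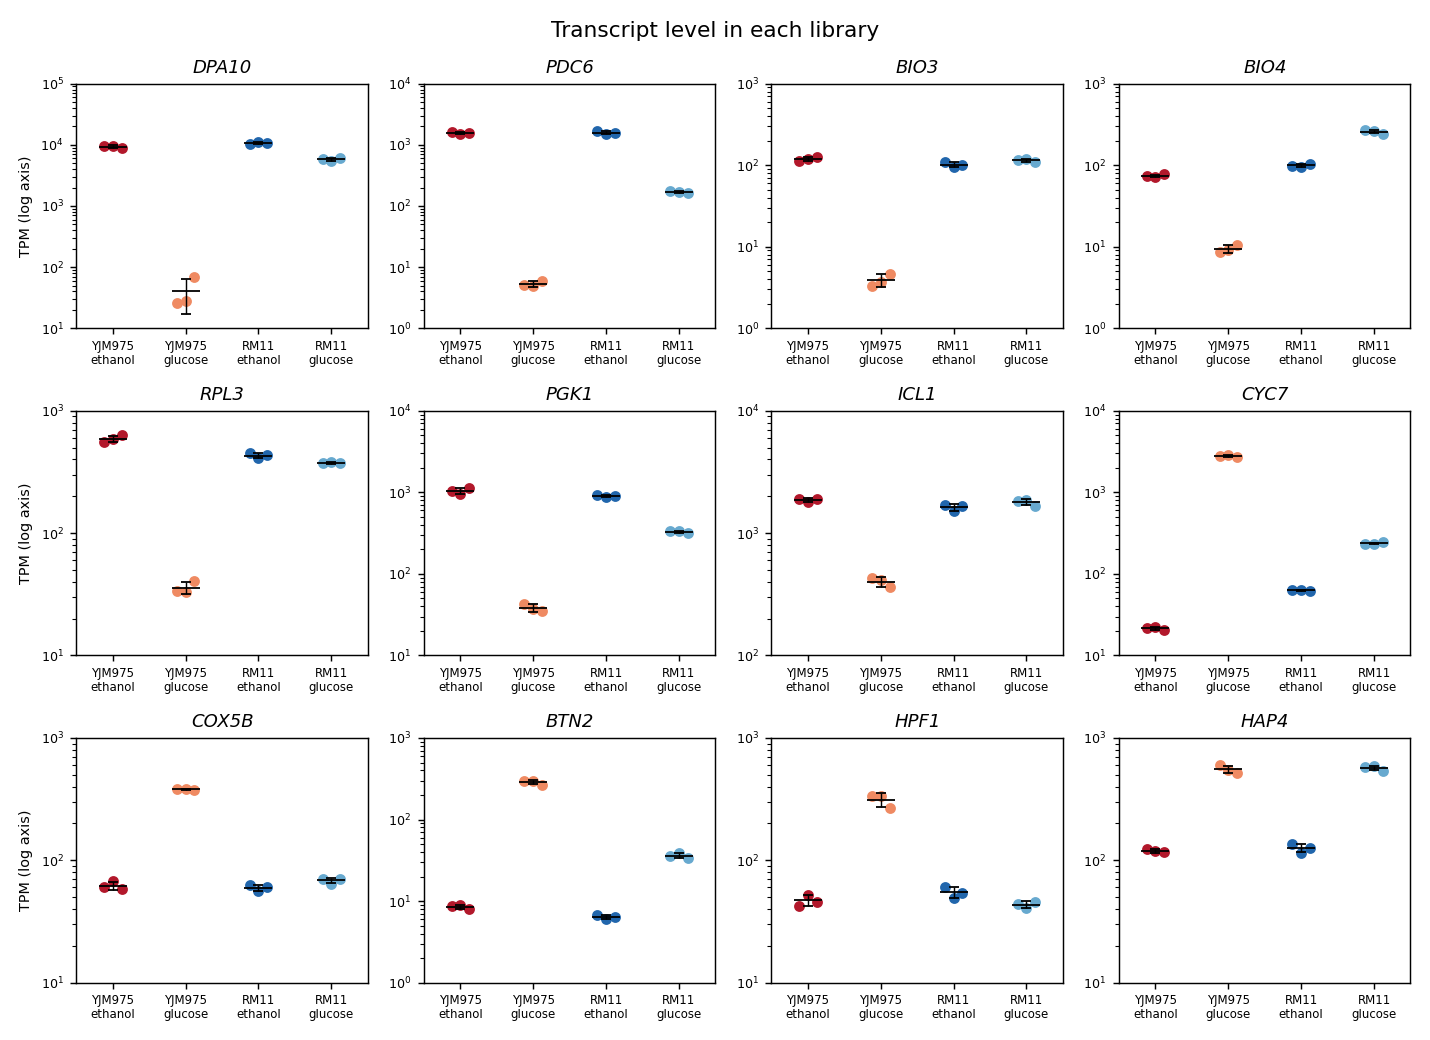
Levels of 12 genes in each library, TPM on a log axis, with the mean and SD of 3 replicates in black; YJM975 in ethanol and glucose, then RM11 in ethanol and glucose. In 11 of the panels the YJM975 glucose libraries stand apart from the other 9, below them for DPA10, PDC6, BIO3, BIO4, RPL3, PGK1 and ICL1 and above them for CYC7, COX5B, BTN2 and HPF1; HAP4 shows the same change in both strains.

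Of 14 genes of the pathways that turn acetyl-CoA into sugars, 9 rose and 3 fell in YJM975, against 4 and 9 in RM11. Over all genes 56.7% rose and 30.4% fell in YJM975, and 31.6% and 37.4% in RM11. The rising shares of the list were close to those over all genes. In the glyoxylate cycle and gluconeogenesis 11 of 14 genes were called higher and 1 lower (AGX1, a glyoxylate aminotransferase, at -0.48). Of all genes 56.5% and 20.2% were. The list had a median response of 0.85 in YJM975 and -0.72 in RM11 and a relative median of 0.72. ICL1, whose isocitrate lyase opens the glyoxylate shunt, had 1905, 1787 and 1918 TPM in ethanol, against 428, 414 and 360.2 TPM in glucose in YJM975. RM11 libraries had 1714, 1508 and 1654 TPM in ethanol, against 1842, 1863 and 1668 TPM in glucose, with no called change. The difference of responses was 2.36 ± 0.10 (adjusted p = 1.85e-10). PCK1, which commits oxaloacetate to gluconeogenesis, stood at 397 ± 13.9 TPM in ethanol and 189 ± 10.03 TPM in glucose in YJM975 and 453 ± 36.9 TPM in ethanol and 755 ± 58.3 TPM in glucose in RM11, a rise in one strain and a fall in the other that differed by 1.81 ± 0.10. MLS1, the malate synthase, did likewise, at 1.51 ± 0.11, and so did ICL2, a mitochondrial methylisocitrate lyase, at 1.79 ± 0.11. FBP1 fell in both strains and less in YJM975, a difference of 0.86 ± 0.08.

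In peroxisomal fatty acid oxidation 12 of 18 genes rose and 3 fell in YJM975, against 5 and 11 in RM11. Over all genes 56.7% rose and 30.4% fell in YJM975, and 31.6% and 37.4% in RM11. The difference of responses was called higher for 16 (56.5% of all genes) and lower for 1 (20.2% of all genes), FAA1, an acyl-CoA synthetase, at -1.10. With median centring 11 were called higher and 4 lower. The median response was 1.22 in YJM975 and -0.21 in RM11, and the relative median 0.83. POX1, the acyl-CoA oxidase of the first step, stood at 60.0, 53.3 and 55.2 TPM in ethanol, against 12.1, 10.4 and 9.87 TPM in glucose in YJM975. Levels in RM11 were 53.1, 45.3 and 48.7 TPM in ethanol, against 61.4, 60.7 and 57.5 TPM in glucose. It rose in YJM975 and fell in RM11, a difference of 2.57 ± 0.11 (adjusted p = 1.50e-10). POT1, the thiolase of the last step, differed by 2.28 ± 0.08, FAA4, a second acyl-CoA synthetase, by 2.44 ± 0.09, and ANT1, the peroxisomal adenine nucleotide carrier, by 2.39 ± 0.09. CTA1, the peroxisomal catalase, rose in both strains and differed by 1.32 ± 0.09.

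Of 19 TCA cycle genes 14 were called higher (73.7%) and 4 lower (21%), against 56.5% and 20.2% over all genes. The share called lower was thus close to that over all genes. The median was 0.14 relative to all genes (0.48 with quantile normalization), and centring on the library median left 7 higher and 7 lower. LSC2, a succinyl-CoA ligase subunit, stood at 212 ± 6.21 TPM in ethanol and 58.2 ± 3.47 TPM in glucose in YJM975 and 379 ± 25.8 TPM in ethanol and 294 ± 6.75 TPM in glucose in RM11, a difference of 1.48 ± 0.08 (adjusted p = 2.24e-09). Of the genes called lower, 3 encode succinate dehydrogenase subunits, SDH2 at -0.73, SDH4 at -0.69 and SDH1 at -0.44, and the other is PYC1, a pyruvate carboxylase, at -0.39.

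Respiratory chain genes went the other way. Of 27, 25 fell in YJM975 and 23 in RM11, where 30.4% and 37.4% of all genes fell. For the difference of responses 24 of the 27 were called lower and 1 higher (NDE2, an external NADH dehydrogenase, at 0.95). Of all genes 20.2% and 56.5% were. The median response was -1.61 in YJM975 and -0.78 in RM11, and the relative median -1.22 (-0.56 with quantile normalization). The list took 2.84 ± 0.0136% of all TPM in YJM975 in ethanol and 9.01 ± 0.230% in glucose, against 3.78 ± 0.0509% and 6.35 ± 0.0824% in RM11. CYC7, the isoform of cytochrome c linked to low oxygen and stress, stood at 21.7, 22.6 and 20.4 TPM in ethanol, against 2823, 2897 and 2747 TPM in glucose in YJM975. The RM11 values were 63.9, 63.1 and 62.5 TPM in ethanol, against 231, 235 and 243 TPM in glucose. YJM975 was lower than RM11 in ethanol by 1.51 log2 units and higher in glucose by 3.57, and the difference of responses, -5.08 ± 0.07 (adjusted p = 1.14e-14), was the most negative of all genes named by the rule. CYC1, the aerobic isoform, differed by -1.55 ± 0.07. COX5B and COX5A, alternative forms of subunit 5 of cytochrome c oxidase favoured in low and in normal oxygen, differed by -2.40 ± 0.09 and -1.08 ± 0.07. COX5B in YJM975 stood at 60.1, 67.8 and 58.3 TPM in ethanol, against 381, 385 and 373 TPM in glucose. In RM11 it stood at 62.7, 56.0 and 60.4 TPM in ethanol, against 70.7, 64.1 and 70.7 TPM in glucose, so that the 3 YJM975 glucose libraries lay above the other 9. COX9, a small subunit of the same enzyme, differed by -1.52 ± 0.10.

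ATP synthase genes were lower for 13 of 17 and higher for 0, where 20.2% and 56.5% of all genes were. The list median was -0.73 relative to all genes. Under quantile normalization 7 were lower and the relative median was -0.11. ATP15, the epsilon subunit, differed by -0.62 ± 0.08 (adjusted p = 1.59e-05), ATP18, a membrane subunit, by -0.73 ± 0.08, and STF1 and STF2, which modulate the natural inhibitor of the enzyme, by -0.62 ± 0.09 and -0.45 ± 0.09 (adjusted p = 4.91e-04). The carbon regulators of this programme were mixed. HAP4, the activating subunit of the Hap2/3/4/5 complex for respiratory genes, stood at 124, 118 and 116 TPM in ethanol, against 598, 550.4 and 519 TPM in glucose in YJM975. RM11 libraries had 135, 116 and 127 TPM in ethanol, against 575, 589 and 542 TPM in glucose, and the difference of responses was -0.04 ± 0.09 (adjusted p = 0.712), not called. CAT8, the activator of gluconeogenesis, fell in both strains and further in YJM975 (-0.85 ± 0.09), as did ADR1, the activator of ADH2 and peroxisomal genes (-0.74 ± 0.12). REG2, a regulatory subunit of the Glc7 phosphatase, fell in YJM975 and rose in RM11, a difference of -1.30 ± 0.09.

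Of 65 mitochondrial ribosomal protein genes, 24 were called higher (36.9%) and 18 lower (27.7%), where 56.5% and 20.2% of all genes were. Once libraries were centred on their medians, 6 were called higher and 49 lower, so the direction of this list depends on the scaling. The relative median was -0.41, and -0.16 with quantile normalization. MRPL11 rose in YJM975 and fell in RM11 (1.17 ± 0.09, adjusted p = 6.39e-08), and MRPS17 fell in both and further in YJM975 (-0.79 ± 0.08).

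The CCAAT box bound by the Hap complex stood in 77.8% of respiratory chain and 88.2% of ATP synthase promoters, against 43.3% of all. Among promoters of genes called lower 2-fold its share was 37.7%, below that of all, and among those called higher 2-fold 47.4%. The stress response element AGGGG (STRE), bound by Msn2 and Msn4, stood in 51.9% of respiratory chain, 47.1% of ATP synthase and 39.2% of the 212 promoters of genes called lower 2-fold, against 21.6% of all and 16.2% of those called higher 2-fold. CYC7 and COX5A are shown over bases 250 to 101 before the start, at chrV:80078-80227 (minus strand) with STRE in capitals and at chrXIV:531475-531624 (plus strand) with CCAAT in capitals.
CYC7: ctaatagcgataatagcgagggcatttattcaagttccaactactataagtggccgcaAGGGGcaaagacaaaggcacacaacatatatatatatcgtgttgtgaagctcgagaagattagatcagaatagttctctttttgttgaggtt
COX5A: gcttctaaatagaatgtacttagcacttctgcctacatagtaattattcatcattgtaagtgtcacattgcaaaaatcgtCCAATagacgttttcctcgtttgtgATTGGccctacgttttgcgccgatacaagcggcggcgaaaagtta
The STRE of CYC7 begins 192 bases before the start. The CCAAT matches of COX5A begin at 170 and, on the other strand, at 145.

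**Figure D4:**
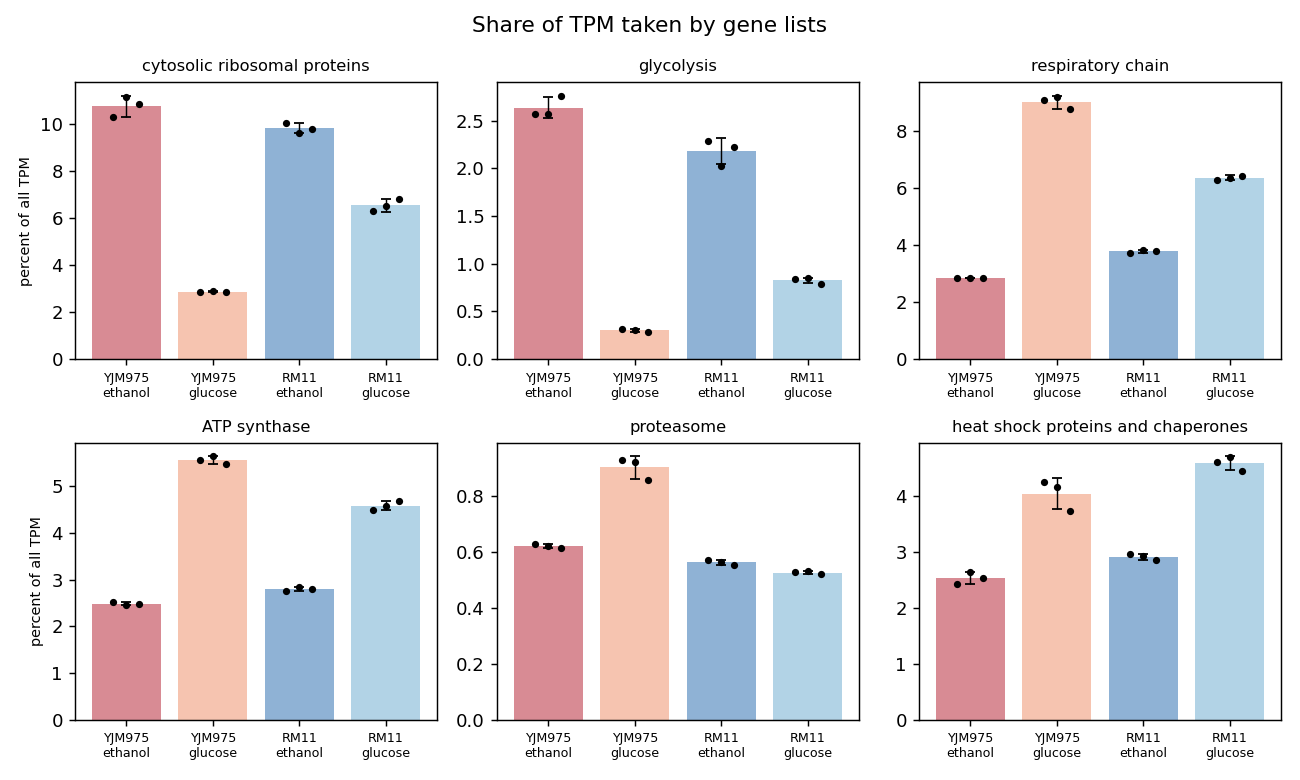
Percent of all TPM taken by 6 gene lists in each library (points), with the mean as a bar and the SD as error bar, n = 3; YJM975 in ethanol and glucose, then RM11 in ethanol and glucose. Ribosomal protein and glycolysis shares are lowest in YJM975 in glucose (2.87% and 0.300%), and respiratory chain, ATP synthase and proteasome shares are highest there (9.01%, 5.56% and 0.900%).

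Most proteasome genes fell in YJM975, 24 of 36 with 7 rising, against 6 falling and 16 rising in RM11. Over all genes 30.4% fell and 56.7% rose in YJM975, and 37.4% and 31.6% in RM11. For the difference of responses 29 of the 36 were called lower and 1 higher (PRE2, a catalytic subunit, at 0.57). Of all genes 20.2% and 56.5% were. The list had a median response of -0.46 in YJM975 and 0.09 in RM11 and a relative median of -0.94. RPN10, the ubiquitin receptor of the lid-base junction, stood at 134, 142 and 146 TPM in ethanol, against 387, 379 and 343 TPM in glucose in YJM975. Levels in RM11 were 136, 120.3 and 131 TPM in ethanol, against 149.8, 134 and 134 TPM in glucose. The difference of responses was -1.28 ± 0.09 (adjusted p = 3.23e-08). RPT6, an ATPase of the base, differed by -1.23 ± 0.08, RPN13, another ubiquitin receptor, by -1.10 ± 0.07, and PRE5, a subunit of the core, by -1.05 ± 0.08. PACE (GGTGGCAAA), the element bound by the proteasome regulator Rpn4, stood in 27 of 36 proteasome promoters, against 1.20% of all, and in 4.72% of those of genes called lower 2-fold. RPT6 is shown with it in capitals, over bases 250 to 76 before the start, at chrVII:411362-411536 (minus strand), where it begins 84 bases before the start.
RPT6: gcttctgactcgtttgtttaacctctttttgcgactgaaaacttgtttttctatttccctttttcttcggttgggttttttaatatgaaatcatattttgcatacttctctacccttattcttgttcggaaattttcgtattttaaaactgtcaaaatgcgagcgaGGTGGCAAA

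The other motifs were also searched in the promoters of genes called higher 2-fold, of genes called lower 2-fold and of all genes. MCB (ACGCGT), bound by MBF, stood in 3.52%, 3.77% and 3.06%, and in 44.4% of DNA replication promoters. SCB (CGCGAAA), bound by SBF, stood in 58 of 1450, 5.66% and 3.59%. URS1 (GGCGGC), bound by Ume6, stood in 4.34%, 9.43% and 5.12%, and in 46.4% of meiosis promoters. The middle sporulation element (GNCACAAAA) stood in 1.72%, 1.42% and 1.94%, and in 30.4% of sporulation promoters. Shares were 3.66%, 1.89% and 2.72% for the Gcn4 site (TGACTCA), 3.86%, 4.25% and 4.14% for the sterol element (TCGTATA), and 1.31%, 1.89% and 1.66% for the post-diauxic element (TAGGGAT). The carbon source-responsive element gave 10.1%, 13.7% and 10.2%, the early cell cycle box 0.345%, 0% and 0.648%, and the biotin-responsive element, searched after the values of the biotin genes had been seen, 0.483%, 0% and 0.415%. A match is a run of letters and not a shown binding site.

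Heat shock proteins and chaperones were called lower for 22 of 33 and higher for 7, against 20.2% and 56.5% over all genes. The median response of the list was -1.50 in YJM975 and -1.09 in RM11, and the relative median -0.86 (-0.54 with quantile normalization). BTN2, a sorting factor for misfolded proteins, stood at 8.66, 8.90 and 7.91 TPM in ethanol, against 301, 298 and 268 TPM in glucose in YJM975. The RM11 values were 6.69, 6.06 and 6.35 TPM in ethanol, against 35.7, 38.9 and 34.0 TPM in glucose, and the difference of responses was -2.60 ± 0.10 (adjusted p = 4.88e-11). HSP30, a plasma membrane stress protein, differed by -2.09 ± 0.13 and HSP26, a small heat shock protein, by -1.09 ± 0.08. SSB1 and SSB2, near-identical chaperones that sit on the ribosome, went with the ribosomal genes, at 3.05 ± 0.12 and 3.06 ± 0.09. HSP12, a membrane-associated stress protein, rose in YJM975 by 0.41 and fell in RM11 by 0.35, a difference of 0.76 ± 0.09. The heat shock element, bound by Hsf1, stood in 24.2% of these promoters, against 0.781% of all, and in 0.472% of those of genes called lower 2-fold.

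Trehalose and glycogen genes were lower for 15 of 22 and higher for 3, against 20.2% and 56.5% over all genes. The relative median was -0.89. GSY1, a glycogen synthase, stood at 21.9, 23.4 and 24.1 TPM in ethanol, against 85.0, 81.4 and 70.7 TPM in glucose in YJM975. In RM11 it stood at 28.3, 22.9 and 26.6 TPM in ethanol, against 22.5, 21.9 and 19.5 TPM in glucose. It fell in YJM975 and rose in RM11, a difference of -1.996 ± 0.123 (adjusted p = 4.89e-09). UGP1, which makes UDP-glucose, did the same (-1.09 ± 0.09), while GLG2, a glycogen primer, and GLC3, the branching enzyme, fell in both strains and further in YJM975 (-1.66 ± 0.08 and -1.17 ± 0.12).

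Histone genes were lower for 9 of 10 and higher for 0, where 20.2% and 56.5% of all genes were. Of the 10, 5 fell in YJM975 and rose in RM11, against 125 of all 6271 genes. The relative median was -1.06 (-0.70 with quantile normalization). HHF1, a histone H4 gene near-identical to HHF2, stood at 709 ± 28.3 TPM in ethanol and 1199 ± 57.6 TPM in glucose in YJM975 and 1034 ± 165 TPM in ethanol and 779.9 ± 26.3 TPM in glucose in RM11, a difference of -1.15 ± 0.12 (adjusted p = 1.30e-06). HHO1, the linker histone, differed by -1.07 ± 0.08, HHT1, an H3 gene, by -0.98 ± 0.08 and HTA1, an H2A gene, by -0.77 ± 0.07. HHT2, the other H3 gene, stood at 0.09 and was not called. DNA replication genes were higher for 26 of 36 and lower for 6, where 56.5% and 20.2% of all genes were. Their relative median was 0.43, and with quantile normalization it was 0.22, with 17 higher and 11 lower. RFC1, the large subunit of the clamp loader, differed by 2.35 ± 0.13, and CDC21, the thymidylate synthase, by 2.02 ± 0.13.

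**Figure D5:**
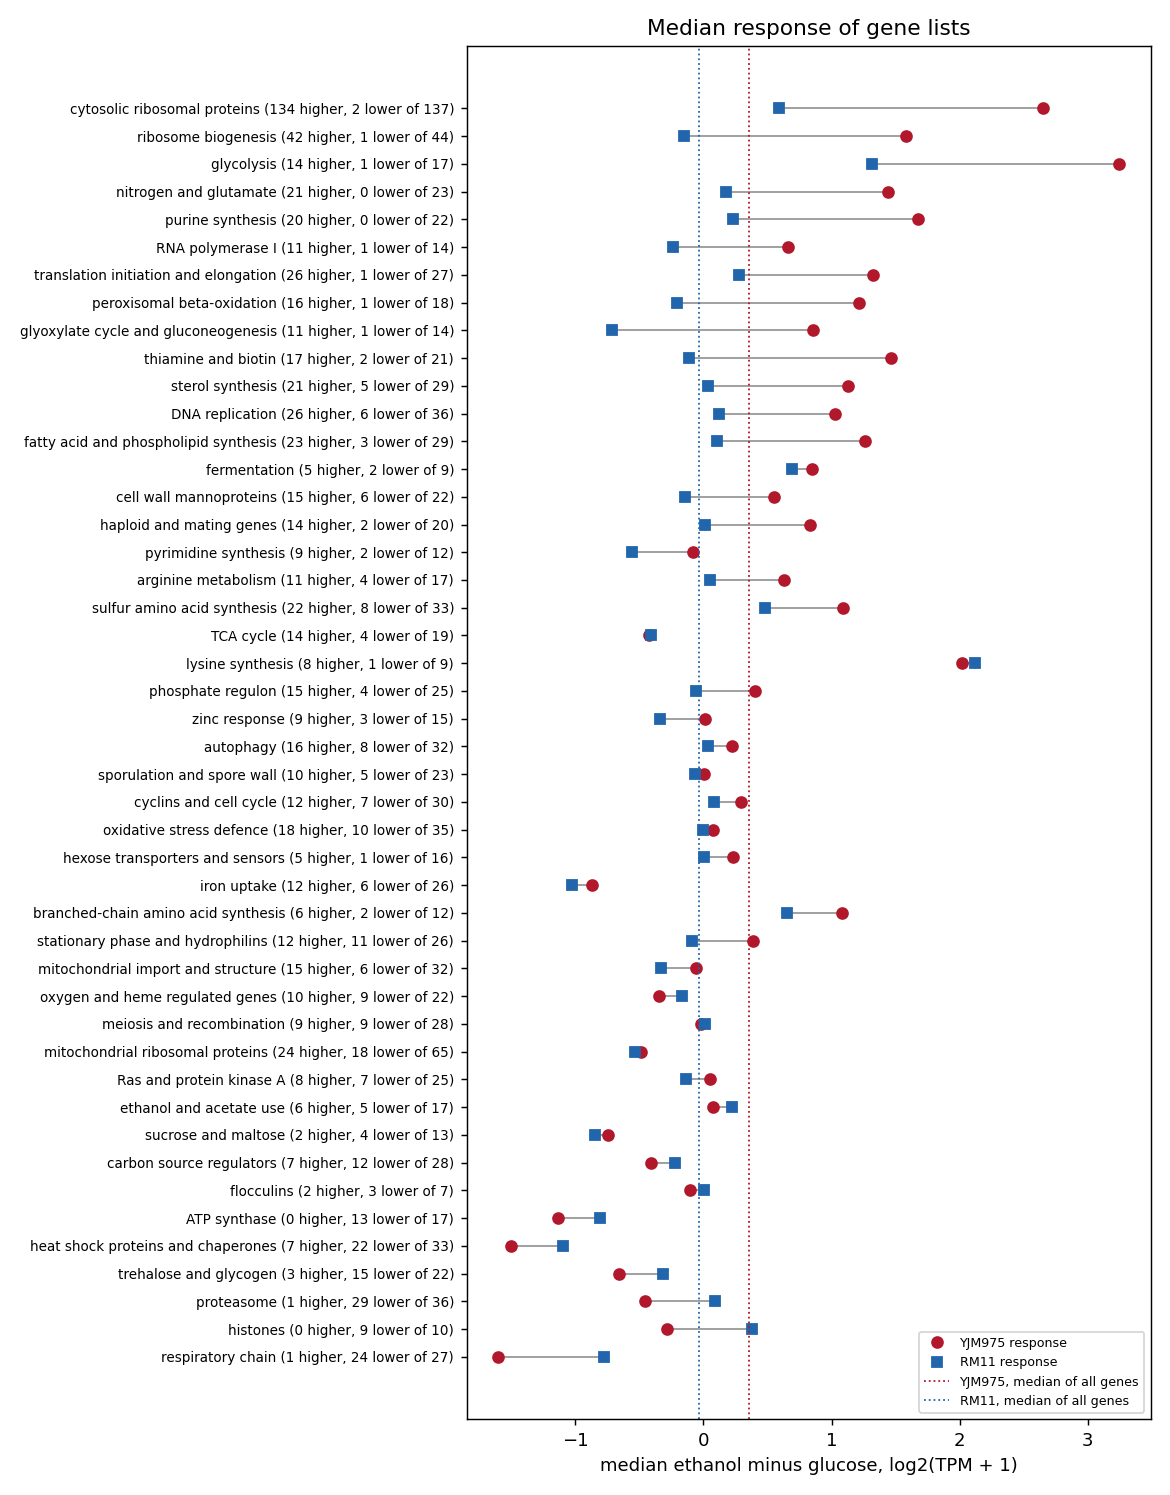
Median ethanol minus glucose response, log2(TPM + 1), of each of 46 gene lists in YJM975 (circles) and RM11 (squares), with the number of members called higher and lower for the difference of responses; dotted lines mark the medians of all genes, 0.35 in YJM975 and -0.03 in RM11. The YJM975 medians lie farther from 0 than the RM11 medians for the cytosolic ribosomal protein, glycolysis, respiratory chain and proteasome lists.

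Of lipid synthesis genes, 22 of 29 of sterol synthesis and 22 of 29 of fatty acid and phospholipid synthesis rose in YJM975, against 13 of each in RM11, where 56.7% of all genes rose in YJM975 and 31.6% in RM11. Sterol synthesis was higher for 21 of 29 (72.4%) and lower for 5 (17.2%), against 56.5% and 20.2% over all genes. The share called lower was thus close to that over all genes. With median centring 18 were called higher and 9 lower. The median response was 1.13 in YJM975 and 0.03 in RM11, and the relative median 0.62. ERG3, the C-5 sterol desaturase, stood at 193, 156 and 185 TPM in ethanol, against 9.75, 10.7 and 10.3 TPM in glucose in YJM975. RM11 libraries had 174, 167 and 172 TPM in ethanol, against 167, 165 and 145 TPM in glucose, with no called change, and the difference was 3.88 ± 0.11 (adjusted p = 5.62e-12). ERG25, the C-4 methyl sterol oxidase, differed by 3.68 ± 0.08, ERG5, the C-22 desaturase, by 3.00 ± 0.10 and ERG1, the squalene epoxidase, by 2.71 ± 0.08. The 5 called lower were ARE2 at -1.02, HMG2 at -0.63, ECM22 at -0.54, UPC2 at -0.40 and ERG9 at -0.25; ECM22 and UPC2 encode activators of the pathway. Fatty acid and phospholipid synthesis was higher for 23 of 29 and lower for 3 (20 and 7 with median centring), with a relative median of 0.42. OLE1, the fatty acid desaturase, differed by 3.13 ± 0.12, ACC1, the acetyl-CoA carboxylase, by 2.52 ± 0.11, and INO2, an activator of phospholipid genes, by 1.97 ± 0.12. PIS1, which makes phosphatidylinositol, went against the list at -2.10 ± 0.10.

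Biotin and thiamine genes held 3 of the 12 most positive differences. The list was higher for 17 of 21 and lower for 2, against 56.5% and 20.2% over all genes. Its relative median was 0.63. BIO3, an aminotransferase of biotin synthesis, stood at 114, 118 and 126 TPM in ethanol, against 3.33, 3.73 and 4.69 TPM in glucose in YJM975. Levels in RM11 were 109.7, 95.2 and 99.9 TPM in ethanol, against 117, 119.9 and 109 TPM in glucose, with no called change. The difference of responses was 4.80 ± 0.13 (adjusted p = 3.60e-12). BIO4, the next enzyme of the pathway, stood at 73.2, 72.6 and 77.3 TPM in ethanol, against 8.70, 9.20 and 10.6 TPM in glucose in YJM975. The RM11 values were 99.1, 94.0 and 105 TPM in ethanol, against 269, 262 and 244 TPM in glucose. It rose in YJM975 and fell in RM11, a difference of 4.22 ± 0.10. In the R64 assembly BIO3 (chrXIV:734291-735733, plus strand) and BIO4 (chrXIV:733356-734069, minus strand) are divergent neighbours with 221 bases between them. VHT1, the biotin transporter, also rose in YJM975 and fell in RM11 (3.57 ± 0.11). THI4, the thiazole synthase of thiamine synthesis, stood at 76.0 ± 2.02 TPM in ethanol and 2.89 ± 0.433 TPM in glucose in YJM975 and 22.8 ± 1.27 TPM in ethanol and 23.8 ± 1.38 TPM in glucose in RM11, a difference of 4.37 ± 0.11.

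Nitrogen and glutamate genes were higher for 21 of 23 and lower for 0, against 56.5% and 20.2% over all genes. The relative median was 0.98. GAP1, the general amino acid permease, stood at 98.1 ± 5.85 TPM in ethanol and 3.20 ± 0.243 TPM in glucose in YJM975 and 113 ± 8.23 TPM in ethanol and 57.7 ± 4.54 TPM in glucose in RM11, a difference of 3.60 ± 0.11 (adjusted p = 6.87e-12). DAL80 and GZF3, GATA repressors of nitrogen genes, differed by 3.24 ± 0.12 and 2.58 ± 0.09, and PUT4, the proline permease, by 2.63 ± 0.11. Purine synthesis was higher for 20 of 22 and lower for 0, with a relative median of 0.98. IMD3, an IMP dehydrogenase of GTP synthesis, differed by 3.42 ± 0.08, ADE17, of the last steps to IMP, by 2.79 ± 0.09 and GUA1, the GMP synthase, by 2.75 ± 0.11. IMD4, another IMP dehydrogenase, rose in YJM975 and fell in RM11 (2.25 ± 0.15).

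Of 28 meiosis genes 9 were called higher and 9 lower, and of 23 sporulation genes 10 higher and 5 lower, against 56.5% and 20.2% of all genes. With median centring these were 7 and 17 for meiosis and 4 and 10 for sporulation, so the direction depends on the scaling. The relative medians were -0.36 and -0.12, and that of sporulation was -0.30 with quantile normalization. IME1, the master inducer of meiosis in diploids, stood at 93.5, 93.1 and 81.8 TPM in ethanol, against 2.01, 2.10 and 2.28 TPM in glucose in YJM975. In RM11 it stood at 109, 93.5 and 98.2 TPM in ethanol, against 41.6, 41.2 and 41.2 TPM in glucose, a difference of 3.60 ± 0.10 (adjusted p = 3.90e-12). RIM4, an RNA-binding regulator of meiosis, was opposite, at -1.80 ± 0.11. SPS100, a spore wall gene, rose in both strains and differed by 2.99 ± 0.13. AGA2, the adhesion subunit of a-agglutinin in the mating list, differed by 2.86 ± 0.23.

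Among single genes the most positive difference was that of DPA10 (YLR307C-A). It stood at 9493, 9714 and 8893 TPM in ethanol, against 25.8, 28.2 and 68.0 TPM in glucose in YJM975. RM11 libraries had 10289.7, 11247 and 10878 TPM in ethanol, against 5878, 5496 and 5971 TPM in glucose. Levels in ethanol did not differ by the test and those in glucose differed by -7.26, for a difference of responses of 7.05 ± 0.35 (adjusted p = 6.34e-10). ARO10, a decarboxylase of aromatic amino acid breakdown, differed by 3.92 ± 0.11. ADF1 was listed at 17.5, 23.0 and 7.34 TPM in YJM975 in ethanol, at most 0.0323 TPM in YJM975 in glucose and at most 0.00137 TPM in RM11, near 0 in all but the first group, so no fold is given. It overlaps FYV5 and shares sequence with it, so reads of these cannot be told apart.

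Among the 12 most negative were also 10 genes outside the respiratory chain list. HPF1, a cell wall mannoprotein, stood at 42.7, 52.3 and 45.9 TPM in ethanol, against 334, 338 and 268 TPM in glucose in YJM975. Levels in RM11 were 60.9, 49.5 and 54.0 TPM in ethanol, against 43.9, 40.6 and 46.0 TPM in glucose, so that it fell in YJM975 and rose in RM11 (-3.03 ± 0.14, adjusted p = 4.32e-10). HOT13, a zinc-binding protein of the mitochondrial intermembrane space, stood at 42.9 ± 1.45 TPM in ethanol and 292 ± 7.24 TPM in glucose in YJM975 and 41.1 ± 1.79 TPM in ethanol and 39.9 ± 1.20 TPM in glucose in RM11, a difference of -2.78 ± 0.07. CAR1, the arginase, fell in YJM975 with no called change in RM11, a difference of -2.44 ± 0.13. CAR2, the next enzyme of arginine breakdown and not among the 12, fell in YJM975 and rose in RM11, a difference of -2.16 ± 0.11. YGR035C was at 13.9 ± 1.74 TPM in ethanol and 30.3 ± 1.05 TPM in glucose in YJM975 and 25.1 ± 0.582 TPM in ethanol and 7.40 ± 0.164 TPM in glucose in RM11, opposite changes that differed by -2.71 ± 0.10. The others were BTN2, given above, and YMR254C, YOL131W, YML034C-A, YNR014W and YML100W-A, at -3.69, -2.67, -2.55, -2.49 and -2.48.

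The other 21 lists had medians between -0.71 and 0.34 relative to all genes. Their counts are given as called higher and lower, then with median centring in parentheses, and over all genes the shares were 56.5% and 20.2%. Carbon lists had 6 and 5 of 17 for ethanol and acetate use (5 and 11), 7 and 12 of 28 for carbon source regulators (3 and 22), 5 and 1 of 16 for hexose transporters and sensors (2 and 8), and 2 and 4 of 13 for sucrose and maltose (2 and 10). Oxidative stress defence had 18 and 10 of 35 (12 and 19), stationary phase and hydrophilins 12 and 11 of 26 (7 and 16), oxygen and heme regulated genes 10 and 9 of 22 (4 and 12), autophagy 16 and 8 of 32 (5 and 15), and Ras and protein kinase A 8 and 7 of 25 (6 and 17). Cyclins had 12 and 7 of 30 (7 and 16), cell wall mannoproteins 15 and 6 of 22 (9 and 6), flocculins 2 and 3 of 7 (2 and 5), and mitochondrial import and structure 15 and 6 of 32 (7 and 18). Lysine synthesis had 8 and 1 of 9 (3 and 3), branched-chain amino acids 6 and 2 of 12 (5 and 7), arginine 11 and 4 of 17 (9 and 7), sulfur amino acids 22 and 8 of 33 (14 and 11) and pyrimidines 9 and 2 of 12 (5 and 3). Iron uptake had 12 and 6 of 26 (7 and 15), zinc 9 and 3 of 15 (4 and 6), and phosphate 15 and 4 of 25 (10 and 13). For many of these lists the majority turned with the scaling, and no direction is given for them. STL1, a glycerol transporter of the hexose transporter family, stood at 67.3 ± 2.54 TPM in ethanol and 25.6 ± 0.998 TPM in glucose in YJM975 and 68.3 ± 3.94 TPM in ethanol and 202 ± 15.6 TPM in glucose in RM11, opposite changes that differed by 2.91 ± 0.09 (adjusted p = 1.18e-11). LYS9, of lysine synthesis, rose in both strains, by 7.11 in YJM975 and 4.84 in RM11.

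Reference genes of carbon use, stress and the cell cycle gave mixed differences. HXT6 and HXT7, near-identical hexose transporters between which reads may be split, differed by 0.42 ± 0.17 (adjusted p = 0.0383) and 0.41 ± 0.19 (adjusted p = 0.0731). HXT7 was listed at no more than 0.665 TPM in any YJM975 library, against 52.2 to 87.0 TPM in RM11. HXK2, HXT3, JEN1, the lactate and pyruvate transporter, and ACS1, the acetyl-CoA synthetase of non-fermentative growth, were not called, at 0.30, -0.16, -0.05 and -0.23. SUC2, the invertase, differed by -0.94 ± 0.13 and FLO11, a cell surface flocculin, by 1.57 ± 0.13. SIP18 and DDR2, stress genes with the highest mean levels over the 12 libraries, differed by 1.69 ± 0.10 and 0.20 ± 0.08 (adjusted p = 0.0402). Of cell cycle genes, PCL1, a G1 cyclin, differed by 0.90 ± 0.12 and RNR1, the large subunit of ribonucleotide reductase, by 0.32 ± 0.12 (adjusted p = 0.0277), and ADY2, an acetate transporter, by 0.38 ± 0.11 (adjusted p = 0.00713). The sign of PCL1 turned with a pseudocount of 5, that of ADY2, HXT6 and DDR2 with median centring, that of HXK2 with quantile normalization, and that of RNR1 under all of these settings.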

How the data were processed

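The authors deposited 1 table of TPM, a transcript abundance scaled by length with a fixed sum per library, for 18 libraries; the 12 in ethanol and glucose were used. The submitters' processing notes name kallisto, whose version, settings and index were not stated in the sources used here. It divides reads among similar transcripts, so near-identical genes depend on that division, and divergence of a strain from the index can lower a level. TPM hold no depth, so counting error is unknown. Per the labels' protocols, replicates are biological triplicates.

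Genes averaging 1 TPM or more in those 12 columns entered limma 3.58.1 (R 4.3.3) on log2(TPM + 1): 1 fit of 4 group means, 8 residual degrees of freedom, trended empirical Bayes. P-values were Benjamini-Hochberg adjusted over 6271 genes per contrast; ± after a difference is its SE. The pseudocount shrinks differences of low genes. On simulated data of 6251 genes the test recovered 65 of 67 differences of 1.5-fold, 64 of 67 of 2-fold and 64 of 66 of 4-fold, and wrongly called 9 of 6051 unchanged genes. The simulated libraries had few changed genes and were not held to a fixed total. They therefore cannot show wrong calls that come from the scaling.

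Locus names matched 5929 of 6612 transcripts to the R64 annotation of S288C, the source of promoters and coordinates. BLAST 2.17.0 hits with 95% identity on 50% of a coding sequence marked 182 tested genes as near-identical copies, and 128 tested genes overlap another; 530 tested transcripts lacked annotation for both checks. BIO1 and BIO6 of the lists were not matched.

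Members and lists were chosen with earlier results of these data known. The motifs changed after values had been seen: the early cell cycle box was removed and then restored, and the biotin-responsive element was added. Lists carry counts and medians, with no test of a list. Named by rule are the 12 most positive and 12 most negative called differences with a highest group mean of 10 TPM or more and no overlap of library differences, up to 4 called members per described list (any in lists of 10 or fewer), and reference genes. Members named as exceptions to their list were picked after their values were seen. Alternatives covered the pseudocount (0.1, 5), the filter (none, 10 TPM), scaling (median centring, quantile, without the 50 most abundant genes), a fit of all 18 libraries, the replicate number as block, the empirical Bayes variant, library weights and each library left out. Some genes that the rule names are not reported here. Python 3.11.15, pandas 2.3.3, NumPy 2.4.6, SciPy 1.17.1 and matplotlib 3.10.9 were also used.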

Additional observations from a re-analysis of the deposited data

Results flagged for a closer look

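The responses of the strains differed by the test of the difference itself for 3540 genes called higher and 1266 called lower. The change was more positive in YJM975 for the former and more negative for the latter. Of the called genes, 603 rose in YJM975 and fell in RM11, and 125 fell in YJM975 and rose in RM11, both responses being called. The imbalance turned with the scaling, to 297 and 405 with median centring and 292 and 388 with quantile normalization. The genes tracked by name with such opposite calls, at least a 2-fold difference and no overlap between the strains' library differences are listed with their log2 difference of responses. Rising in YJM975 and falling in RM11 were NOP58 2.91, RPA12 2.27, PDC5 1.09, PCK1 1.81, ICL2 1.79, MLS1 1.51, POX1 2.57, POT1 2.28, BIO4 4.22, VHT1 3.57, IMD4 2.25, STL1 2.91, FLO11 1.57 and MRPL11 1.17. Falling in YJM975 and rising in RM11 were REG2 -1.30, PRE5 -1.05, GSY1 -1.996, UGP1 -1.09, HHF1 -1.15, HHO1 -1.07, CAR2 -2.16, HPF1 -3.03, YGR035C -2.71 and YML100W-A -2.48. Groups of 3 libraries are too small for a check of single outlying libraries.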

How the results depend on the processing

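The scaling moved the counts most. With median centring 2250 genes were called higher and 2615 lower (2-fold 807 and 725), 2944 fell in YJM975, and in glucose 2724 were higher and 2505 lower in YJM975; opposite responses numbered 297 (YJM975 up) and 405 (YJM975 down). With quantile normalization these were 2210 and 2562 (726 and 610), 2917, 2741 and 2375, and 292 and 388. The median difference of all genes was then -0.0724 and -0.0760, by the construction of both settings. A pseudocount of 5 left 1003 genes higher 2-fold, which follows from its shrinking of low genes, and rescaling without the 50 most abundant genes gave 192 opposite responses with YJM975 down; the cause was not tested. Of the 4806 called genes, 3516 were also called in the same direction with median centring and 185 in the opposite one, against 3452 and 248 with quantile normalization.

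Some genes changed sign: PCL1 (-0.0454) and RNR1 (-0.0339) with a pseudocount of 5; ADH4 (-0.35), ADY2 (-0.0901), HHT2 (-0.38), DDR2 (-0.27), HXT6 (-0.0470) and RNR1 (-0.16) with median centring; ADH4 (-0.39), HXK2 (-0.45) and RNR1 (-0.39) with quantile normalization. List medians relative to all genes that turned were lysine synthesis (-0.0446 to 0.0315 over single libraries left out; 0.0195 with a pseudocount of 5, 0.00209 with no filter, 8.2549e-05 at a filter of 10 TPM, and 0.0225, 0.00441 and 0.0315 without RM11 glucose replicate 1, RM11 glucose replicate 3 and YJM975 ethanol replicate 3), autophagy (-0.175 to 0.00203 over single libraries left out, 0.00203 without RM11 glucose replicate 3), and, at the 10 TPM filter, flocculins (1.20), hexose transporters and sensors (0.0291), sporulation (0.59) and zinc (0.0940). Mitochondrial import (0.10) and oxidative stress defence (0.12) turned with quantile normalization. The cause of these was not tested.

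Leaving out 1 library gave 3422 to 3573 genes higher and 1165 to 1344 lower, 1496 to 1608 and 221 to 270 at 2-fold, 510 to 649 and 99 to 132 opposite responses. The replicate numbers did not pair the libraries: 3 of 18 same-numbered pairs had a correlation of deviations over 0.1 (-0.115 to 0.163), and 6 of 12 libraries correlated best with their own number. With the replicate block 4862 genes were called. Depth is unknown, and run and medium cannot be told apart.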
